A study of Rattus norvegicus with 91 samples.

Results

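Solute carriers (SLC) are the membrane proteins named by gene symbols that begin with Slc and a family number. Members were all probe sets of either array design that carry a single gene symbol of that form, without Slc37a4 and Slc10a1. They came to 228 genes on either array, of which 198 were measured in at least 1 design. The earlier and smaller design held 118 SLC genes in 178 probe sets among 4736 named genes, and 98 of them passed the filter on dim signal, among 3579 genes tested. The later design held 226 SLC genes in 279 probe sets among 10411 named genes, and 178 of them passed, among 8069. The other 30 genes, such as the kidney carriers Slc22a6 and Slc5a2, were too dim to be measured on either design. The symbols Slc4a1ap and Slc7a6os match the rule and name proteins that are not carriers.

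RNA came from livers of Wistar rats labelled with a 50 mg/kg dose of methylprednisolone, a synthetic glucocorticoid that binds the glucocorticoid receptor, and was read on Affymetrix arrays. The 47 arrays of the earlier design, called the short course, comprise 4 controls and samples of 16 times, the first at 0.25 h and the last at 72 h (3 arrays a time, or 2 at 2, 5, 12, 30 and 72 h). The 44 arrays of the later design, called the long course, comprise 4 controls and 10 sampled times of 4 arrays, the first at 6 h and the last at 168 h. All groups are Wistar liver, and the labels give no sex, age, route, vehicle, time of day or dosing schedule for any of them, so what the controls received is not known. The labels do not say that replicate arrays are separate animals, so errors and p-values cover the spread among these arrays alone, and that spread may be technical. Each design was scaled on its own, and no level is compared between courses or between genes.

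Solute carriers move sugars, amino acids, organic ions, metals, nucleotides and other small molecules across the plasma membrane, the inner mitochondrial membrane and the membranes of other organelles, by facilitated diffusion, exchange or cotransport with ions. In the liver they take up amino acids for gluconeogenesis and urea synthesis, let glucose in and out, recover bile acids, clear drugs and release stored iron. Glucocorticoids are known to raise hepatic gluconeogenesis and amino acid catabolism, both of which depend on such carriers for their substrates.

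Some arrays stood apart from the rest. Over all probe sets tested, the mean correlation of an array with the other arrays of its course had a median of 0.92 among short-course and 0.93 among long-course arrays. It was under 0.9 for 9 short-course arrays, which are controls 1 and 3 and the treated arrays 0.5 h replicate 3, 2 h replicate 1, 4 h replicate 3, 5 h replicate 2, 7 h replicate 3, 8 h replicate 3 and 72 h replicate 2, and for 96 h replicate 3 of the long course. Short-course results are therefore also given without the 7 treated arrays, and without all 9, which leaves 2 controls. One long-course array, 96 h replicate 1 by title, has a description that says 72 h; its title was followed. Bacterial control transcripts added to the RNA read high on 15 long-course arrays and low on the other 29.

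Defining markers of the labelled tissue were present, with all 6 measured hepatocyte markers of a list of 7 (Alb, Ttr, Apoa1, Apob, Fgb and Serpina1) summing to 48612 to 158699 signal units in short-course controls. The 2 measured neutrophil markers of a list of 5, S100a8 and S100a9, were both higher at 0.25-0.75, 1-2 and 4-8 h of the short course. Their summed signal was 106 to 606 in controls and 499 to 4575 at 4-8 h. Of 4 measured endothelial markers 2 were higher at 4-8 h (Pecam1 and Lyve1) and 1 was lower (Kdr). Of 4 stellate cell and fibroblast markers 1 was higher (Acta2), with a median of -0.08 over that list. Single markers were lower among 3 of Kupffer cells and macrophages (Clec4f), 2 of cholangiocytes (Epcam) and 6 of hepatocytes (Apoa1). The median over the hepatocyte list in that window was -0.32. The part of these cell types in the SLC results below was not tested, and in whole liver RNA fewer cells of a type and less RNA per cell cannot be told apart.

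Promoters were read from RefSeq on build GRCr8, from 250 bases before to 50 bases after each annotated start, and 192 of the 228 SLC genes had one. Those of the 3 SLC genes with the largest called rises at 4-8 h of the short course are shown (Slc2a1, Slc3a2 and Slc11a2). The promoter of Slc27a5, the largest called rise over the windows of the long course, was added because a search had found the letters marked below in it. All are printed from the left in transcript direction, and capitals mark the 6 letters AGAACA, which a glucocorticoid receptor monomer can bind.
Slc2a1 (chr5:138002272-138002571, plus strand): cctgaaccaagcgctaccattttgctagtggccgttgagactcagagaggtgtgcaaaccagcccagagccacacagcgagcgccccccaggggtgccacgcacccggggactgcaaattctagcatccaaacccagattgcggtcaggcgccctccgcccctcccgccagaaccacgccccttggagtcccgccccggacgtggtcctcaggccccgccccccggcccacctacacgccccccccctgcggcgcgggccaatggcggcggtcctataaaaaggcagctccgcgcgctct
Slc3a2 (chr1:215039621-215039920, minus strand): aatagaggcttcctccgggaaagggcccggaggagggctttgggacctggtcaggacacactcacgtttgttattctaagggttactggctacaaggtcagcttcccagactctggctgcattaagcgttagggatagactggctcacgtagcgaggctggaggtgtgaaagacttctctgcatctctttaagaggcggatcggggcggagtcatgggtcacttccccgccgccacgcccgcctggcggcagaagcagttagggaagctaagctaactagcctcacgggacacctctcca
Slc11a2 (chr7:133418890-133419189, minus strand): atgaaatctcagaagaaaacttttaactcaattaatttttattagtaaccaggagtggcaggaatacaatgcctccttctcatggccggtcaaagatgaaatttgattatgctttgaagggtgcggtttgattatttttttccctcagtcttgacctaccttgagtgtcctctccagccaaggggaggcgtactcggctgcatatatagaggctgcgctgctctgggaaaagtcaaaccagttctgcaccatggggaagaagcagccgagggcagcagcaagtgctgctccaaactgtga
Slc27a5 (chr1:82699286-82699585, minus strand): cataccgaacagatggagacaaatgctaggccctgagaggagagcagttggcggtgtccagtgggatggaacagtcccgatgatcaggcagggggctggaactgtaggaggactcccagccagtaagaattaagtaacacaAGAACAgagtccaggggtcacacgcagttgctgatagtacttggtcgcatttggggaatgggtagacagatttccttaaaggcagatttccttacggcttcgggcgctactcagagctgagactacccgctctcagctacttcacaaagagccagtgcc
On either strand, the 6 letters were found in 20.7% of 33469 promoters of the table, in 14.1% of the 192 SLC promoters (27) and in 4 of the 22 promoters of genes named by the rule, which are Slc22a23, Slc25a10, Slc26a8 and Slc27a5. The palindrome of these letters and their reverse complement, 3 bases apart, was found in 5 promoters of the table (0.0149%), and in 0 of the SLC promoters. The Slc27a5 match begins 109 bases before the start on the transcript strand. A match is a run of letters and no measured site, and the windows printed for Slc2a1, Slc3a2 and Slc11a2 do not hold these letters.

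SLC genes changed about as often as other liver genes in the first 8 h of the short course. Over the whole course 34 of 98 SLC genes (34.7%) differed between times by the moderated F test, against 34.3% of all genes tested. At 4-8 h, the window of the main response (17 arrays), 19 SLC genes (19.4%) rose, against 16.8% of all genes, and 13 (13.3%) fell, against 10.9%. A call is an adjusted p under 0.05 in limma against the controls of the same course. The median log2 difference at 4-8 h was 0.11 for SLC genes and 0.11 for all genes tested. Of the calls, 12 rises and 9 falls held in every fit that left out 1 array of the window or 1 control. The split depended on scaling: 13 rose and 14 fell after quantile normalization, and 13 rose and 15 fell after median centring, which moved the median of all probe sets tested from 0.10 to -0.02 on the log2 scale.

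Without the 7 treated arrays of low correlation, 14 SLC genes rose at 4-8 h (background 13.1%) and 10 fell (8.94%). Without all 9, which leaves controls 2 and 4 alone, 3 rose (Slc15a4, Slc41a3 and Slc4a7; background 4.5%) and 2 fell (Slc22a7 and Slc25a30; background 2.4%). The peptide and histidine carrier Slc15a4, the magnesium carrier Slc41a3, the sodium bicarbonate cotransporter Slc4a7, the organic anion carrier Slc22a7 and the mitochondrial carrier Slc25a30 are thus the SLC genes called at 4-8 h on all 3 sets of arrays. Among single arrays left out, Slc15a4 lost its call without control 4 (adjusted p = 0.0784), and the other 4 kept theirs.

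Calls were also made before 4 h and were nearly gone from 12 h on. At 0.25-0.75 h the sodium bicarbonate cotransporters Slc4a4 and Slc4a7 rose (2 of 98; background 2.65%) and 0 SLC genes fell (0.894%), where limma gave 7 lower at an unadjusted p under 0.05 and 1 gene was called without 0.25 h replicate 3 or control 2. The rises numbered 8 without control 2, 6 without 0.25 h replicate 3, 4 without 0.5 h replicate 1 and 0 without control 3 or control 4, and after either other scaling 1 SLC gene rose and 2 fell. At 1-2 h 11 rose (background 7.91%) and 5 fell (4.83%). The window holds 5 arrays: 2 rose and 1 fell without 2 h replicate 1, 5 and 2 without 1 h replicate 2, 7 rose without 2 h replicate 2, 5 rose without control 3, and 5 rose and 3 fell without control 4. After median centring 10 rose and 8 fell. Without the treated arrays of low correlation 10 rose (4.95%) and 5 fell (3.3%); without all 9, 0 rose (0.978%) and 0 fell (0.559%), with 12 higher and 9 lower at an unadjusted p under 0.05 in limma. In these reduced fits Slc2a1 stood at 2.14 (adjusted p = 0.00661) and 2.02 (adjusted p = 0.0873), Slc11a2 at 1.62 (adjusted p = 0.0172) and 1.59 (adjusted p = 0.119) and Slc4a4 at 1.94 (adjusted p = 0.00977) and 1.55 (adjusted p = 0.163).

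At 12-18 h the mitochondrial phosphate carrier Slc25a3 was the only SLC gene called higher (background 0.391%). That call was lost without 12 h replicate 1, 18 h replicate 1, 18 h replicate 2, control 3 or control 4. At the same window 0 SLC genes fell (0.531%), with 6 lower at an unadjusted p under 0.05 in limma, and 1 was called without 18 h replicate 3, control 1 or control 2. At 30-72 h 0 rose (0.0838%) and 0 fell (0.0279%), with 2 higher and 1 lower at an unadjusted p under 0.05 in limma. The direct comparison of 30-72 h with 4-8 h called 20 SLC genes higher late (background 15.3%) and 23 lower late (21.7%).

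At single times of the short course, 10 SLC genes differed from control after 0.5 h (background 9.53%), 1 gene after 1 h (1.26%) and 20 genes after 2 h (15.6%). After 4 h there were 22 (19.2%) and after 5 h 11 (7.68%). Then 15 genes were called after 5.5 h (13.7%), 13 genes after 6 h (12%), 11 genes after 7 h (8.63%) and 17 genes after 8 h (13.6%). No SLC gene was called (0 in each) at 0.25 h (0.112%), 0.75 h (0.14%), 12 h (0.224%), 18 h (0.224%), 30 h (0%), 48 h (0.196%) or 72 h (0.0559%). At an unadjusted p under 0.05 in limma those times had 16, 7, 14, 12, 6, 5 and 5 SLC genes. SLC counts thus followed the counts of all genes, with 0.5 h standing above its neighbours 0.25, 0.75 and 1 h.

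The long course gave 47 of 178 SLC genes (26.4%) past the F test, against 25.3% of all genes tested. At 6-18 h (16 arrays) 11 rose (background 4.98%) and 10 fell (5.16%); the falls numbered 4 without control 1. After median centring the same window had 12 rises and 7 falls. At 24-48 h 2 rose (2.85%) and 1 fell (2.81%). The rises were 4 without 48 h replicate 4, control 2 or control 4, and the fall was lost without any of 24 h replicate 3, 36 h replicates 3 and 4, 48 h replicates 1 and 4 and controls 1 and 4, and 2 genes fell without control 3. At 72-168 h 12 rose (5.09%), or 6 without control 3, and 7 fell (6.46%), or 2 without control 1. The high spike-in arrays were 1 of 4 controls, 4 of 16 arrays at 6-18 h, 4 of 12 at 24-48 h and 6 of 12 at 72-168 h. The log2 ratio of 3′ to 5′ GAPDH control signal, a measure of RNA quality, ran from -0.13 to 0.36 on controls (median 0.08), from -0.09 to 0.64 at 6-18 h (0.15), from 0.16 to 0.58 at 24-48 h (0.26) and from 0.30 to 0.44 at 72-168 h (0.34). On the low spike-in arrays alone 8 genes rose and 8 fell at 72-168 h; the part of the GAPDH ratio in these counts was not tested. Median SLC differences in these windows were 0.0074, 0.00052 and 0.04, against -0.03, -0.04 and -0.04 over all genes.

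By single times, 12 SLC genes differed from control after 6 h (background 4.98%), 20 genes after 10 h (8.2%), 14 genes after 13 h (5.33%), 9 genes after 18 h (5.35%) and 1 gene after 24 h (1.6%). Later, 5 genes were called after 36 h (5.6%), 5 genes after 48 h (4.35%), 10 genes after 72 h (6.27%), 9 genes after 96 h (8.8%) and 14 genes after 168 h (7.91%). The 72-168 h window compared directly with 6-18 h had 23 SLC genes higher late (9.7%) and 13 lower late (12.4%).

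**Figure D1:**
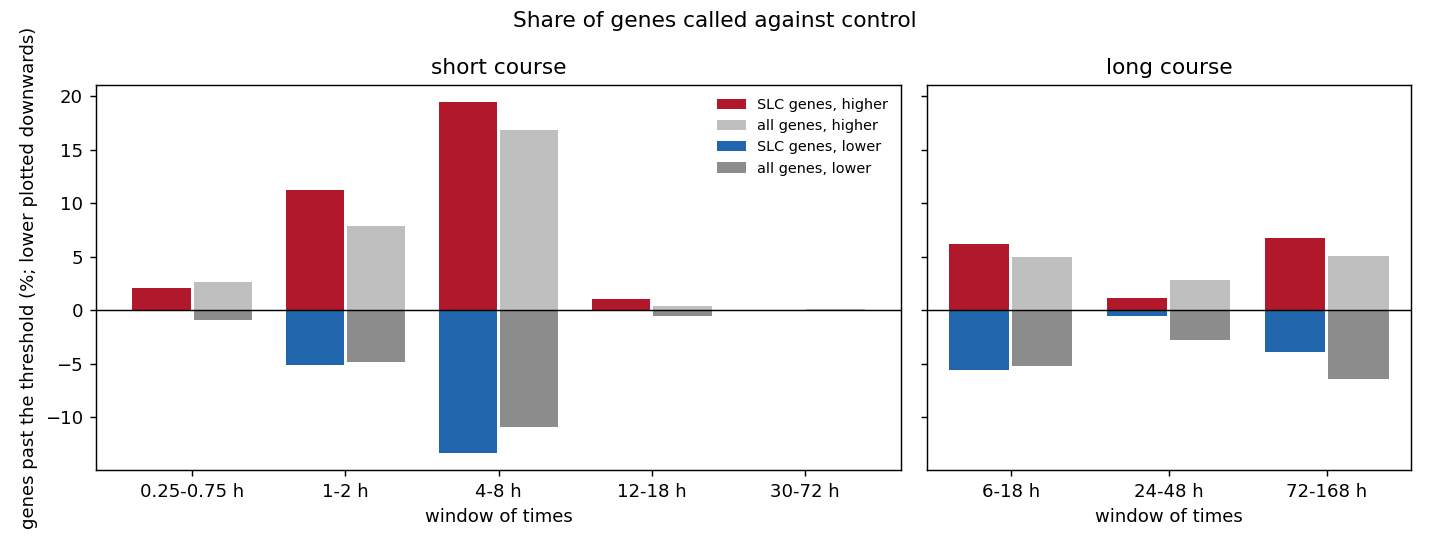
Share of genes past the threshold (%, y axis; lower calls plotted downwards) in each window of times (x axis) of the short course (left, 98 SLC and 3579 genes in all) and the long course (right, 178 and 8069), coloured bars for SLC genes and grey bars for all genes tested. In the short course the SLC bars are tallest at 4-8 h, 19.4% higher and 13.3% lower beside 16.8% and 10.9% of all genes, and no SLC bar is seen at 30-72 h.

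Sugar carriers of the short course moved in opposite directions. Slc2a1, the glucose carrier of most cell types other than hepatocytes, rose at 4-8 h and Slc2a2, the high-capacity glucose carrier of hepatocytes, fell. Of 8 measured genes of the SLC2 and SLC5 families, which include the multivitamin carrier Slc5a6, 3 rose (Slc2a1, the glucose carrier Slc2a3 and the myo-inositol carrier Slc5a3), 1 fell and 4 did not pass. The background was 16.8% higher and 10.9% lower. Slc5a6 was counted by its brightest probe set, and a dimmer one rose by 0.86 (adjusted p = 0.00778) at 4-8 h. The median over the 8 genes, 0.27, compares with 0.11 over all genes.

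Slc2a1 read 123, 159, 203 and 233 signal units on the controls and 223 to 2956 with a median of 595 on the 17 arrays of 4-8 h. At 2 h it read 2331 and 1238, and at 18 h 125, 133 and 155. Its 2 h arrays lay far above every control and its 18 h arrays among them, while at 4-8 h only 8 h replicate 1 fell below the top control. The log2 difference was 1.94 ± 0.50 (adjusted p = 0.00364, same sign on 17 of 17 arrays) at 4-8 h and 2.36 ± 0.60 (adjusted p = 0.0104, same sign on 5 of 5 arrays) at 1-2 h. It was 1.37 (adjusted p = 0.00826) at 4-8 h without the 7 treated arrays of low correlation and 1.25 (adjusted p = 0.135) without all 9. A second Slc2a1 probe set gave 1.52 (adjusted p = 0.0488). The rise at 1-2 h lost its call without 2 h replicate 1 (adjusted p = 0.0614). The arrays with the 4 highest values at 4-8 h (7 h replicate 3 with 2956, 5 h replicate 2 with 2708, 8 h replicate 3 with 2679 and 4 h replicate 3 with 1839.6) are those of low correlation.

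Slc2a2 read 3999, 1031, 3008 and 2387 on the controls and 184 to 2505 with a median of 890.4 at 4-8 h. The groups overlapped, and control 2 lay below 7 of the 17 arrays. The difference was -1.63 ± 0.47 (adjusted p = 0.00948, same sign on 16 of 17 arrays), and it ended without control 1 (adjusted p = 0.0572). It was -1.13 (adjusted p = 0.0569) without the treated arrays of low correlation and -0.56 (adjusted p = 0.616) without all 9, so the call rested on those arrays. In the long course, on other arrays, Slc2a2 read 2215, 1043, 1473 and 1799 on controls and 1259 to 2624 with a median of 2035 at 6-18 h, a difference of 0.30 (adjusted p = 0.27). Slc2a1 was dim there, at 51.2, 49.4, 70.7 and 59.7 on controls and 34.6 to 76.4 with a median of 51.98 at 6-18 h (-0.05, adjusted p = 0.916). Neither glucose carrier was called in a window of the long course, which starts at 6 h.

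The fructose carrier Slc2a5 was a late gene of the long course. It read 82.4, 59.2, 84.5 and 140.1 on the controls, 16.97 to 138 with a median of 96.8 at 6-18 h and 109 to 606 with a median of 234 at 72-168 h. All late arrays except 96 h replicate 2 and 168 h replicate 3 lay above the top control. The late difference was 1.15 ± 0.28 (adjusted p = 0.00359, same sign on 12 of 12 arrays). With Slc45a3 it made 2 late calls (background 5.09% higher) among 12 measured genes of the SLC2, SLC5, SLC37, SLC45 and SLC50 families, which hold sugar carriers but also the iodide carrier Slc5a5 and Slc5a6, and the other 10 did not pass. Short-course Slc2a5 varied between times by the F test, with its highest array at 30 h (302 and 944), and passed in no window.

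Most amino acid carriers of the plasma membrane belong to the SLC1, SLC3, SLC6, SLC7 and SLC38 families, of which SLC6 also holds the carriers of noradrenaline (Slc6a2), dopamine (Slc6a3), serotonin (Slc6a4) and creatine (Slc6a8). At 4-8 h of the short course 4 of 20 measured genes of these families rose (background 16.8%), namely Slc1a1, Slc3a2, the glycine carrier Slc6a9 and Slc7a2. The other 16 did not pass, and the median was 0.23 against 0.11 over all genes. At 1-2 h 4 rose (background 7.91%), the glutamate carriers Slc1a1 and Slc1a3 and the cationic amino acid carriers Slc7a1 and Slc7a2. A dimmer Slc1a1 probe set gave 0.02 (adjusted p = 0.964) at 1-2 h and 0.18 (adjusted p = 0.406) at 4-8 h. A dimmer Slc1a3 set gave 0.62 (adjusted p = 0.314) at 1-2 h. At 6-18 h of the long course 2 of 26 rose (background 4.98%), Slc3a2 and Slc38a2, and 24 did not pass. The short-course difference of Slc6a9, 0.82 (adjusted p = 0.0478), was 0.52 (adjusted p = 0.188) without the treated arrays of low correlation. Its brightest long-course probe set stood at -0.30 (adjusted p = 0.379) at 6-18 h, and a dimmer one was lower there, by -0.94 (adjusted p = 0.0101), and at 24-48 h, by -0.94 (adjusted p = 0.0178).

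Slc3a2, the heavy chain that takes several light-chain amino acid carriers to the cell surface, was called in both courses. On short-course controls it read 2366, 3506, 842 and 1868, at 5.5 h 5006, 5651 and 4918 and at 18 h 850.1, 800.3 and 1189. The 5.5 h arrays lay above every control, and 1 of the 18 h arrays lay below every control with the others near the lowest. Over 4-8 h its signals ran from 2579.6 to 9235 with a median of 5006, a difference of 1.46 ± 0.30 (adjusted p = 0.000507, same sign on 17 of 17 arrays). That was 1.204 (adjusted p = 0.00333) without the treated arrays of low correlation and 0.78 (adjusted p = 0.165) without all 9. A second probe set gave 1.28 (adjusted p = 0.00291). Long-course controls read 302, 719, 319.8 and 347, with control 2 far above the others, and 10 h arrays read 1182, 836, 774 and 703. The difference was 0.84 ± 0.20 (adjusted p = 0.00483, same sign on 16 of 16 arrays) at 6-18 h and -0.38 (adjusted p = 0.368) at 24-48 h. At 24 h the arrays were back among the controls, at 326, 436, 305 and 350.1.

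Slc38a2, a sodium-coupled carrier of small neutral amino acids that was on the long-course design only, showed the largest rise of its 6-18 h window. Controls read 183, 424, 160.1 and 116 and 6 h arrays 1236, 674, 1141 and 1091, and by 13 h the arrays read 306, 313, 362 and 289.9. Every 6 h array lay above every control, while control 2 lay above all 13 h arrays. The difference was 2.18 ± 0.34 (adjusted p = 3.9e-05) at 6 h, 1.29 ± 0.27 (adjusted p = 0.00142, same sign on 16 of 16 arrays) over 6-18 h and 0.99 (adjusted p = 0.0143) at 72-168 h, the last lost without control 1, 3 or 4 (highest adjusted p = 0.0948). Slc38a4, a hepatocyte carrier of the same family, read 2691, 2103, 1902 and 1571 on controls and 3376, 3767, 3551 and 2579 at 36 h. It passed at 36 h only, by 0.69 ± 0.16 (adjusted p = 0.00574).

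Slc7a2, the cationic amino acid carrier with a liver form, read 277, 372, 336 and 236 on short-course controls and 339.5 to 1263 with a median of 535 at 4-8 h. Only 4 h replicate 2 lay below the top control. The rise was 0.92 ± 0.24 (adjusted p = 0.00417, same sign on 17 of 17 arrays), 0.67 (adjusted p = 0.0105) without the treated arrays of low correlation and 0.69 (adjusted p = 0.103) without all 9. It was dim in the long course, with 62.6, 31.5, 34.8 and 59.1 on controls and 0.10 at 6-18 h (adjusted p = 0.786). The related Slc7a1 passed at 1-2 h of the short course by 2.20 ± 0.70 (adjusted p = 0.035, same sign on 5 of 5 arrays) and in no other window, a call lost without any of 6 single arrays (highest adjusted p = 0.118). It stood at 2.27 (adjusted p = 0.0172) there without the treated arrays of low correlation and at 2.30 (adjusted p = 0.108) without all 9, with 1.25 (adjusted p = 0.103) at 4-8 h and 0.00 (adjusted p = 0.996) at 6-18 h of the long course. The glutamate carrier Slc1a2, with 0.04 (adjusted p = 0.903), and Slc3a1, the heavy chain of a cystine carrier, with -0.03 (adjusted p = 0.924) and 0.21 (adjusted p = 0.47), did not pass.

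**Figure D2:**
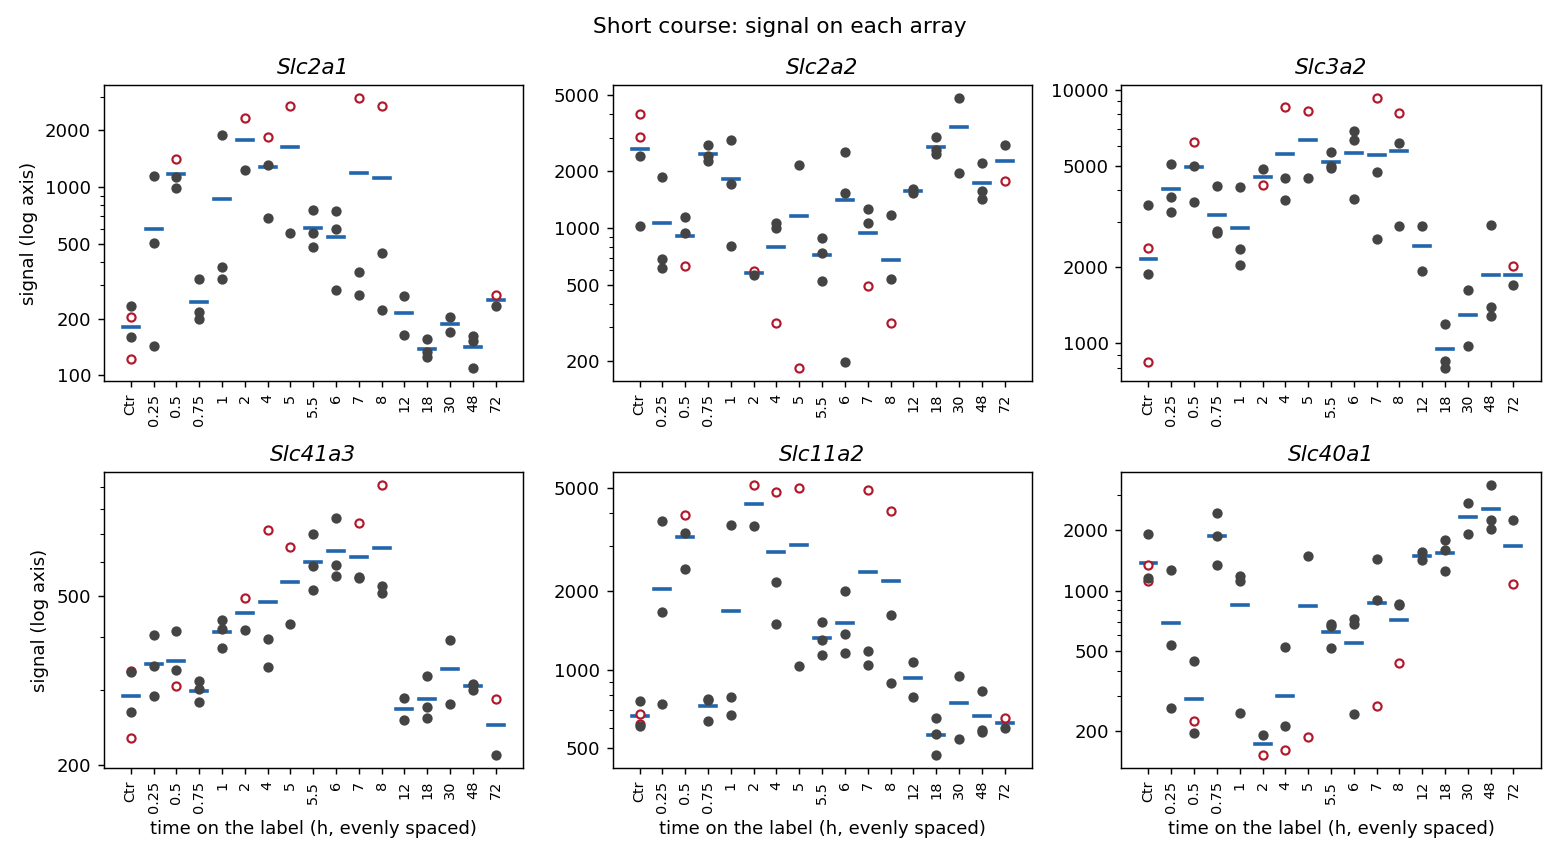
Signal of 6 SLC genes on each short-course array (log y axis) at each labelled time (h, evenly spaced on the x axis); points are arrays, blue lines group means and open red circles arrays with a mean correlation under 0.9. Slc2a1, Slc3a2 and Slc11a2 have means above the control mean from 2 to 8 h, with open circles as the highest Slc2a1 values at 4, 5, 7 and 8 h, Slc40a1 stands lowest at 2 h, and Slc41a3 is highest from 5.5 to 8 h.

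Genes of family SLC25, most of them carriers of the inner mitochondrial membrane, were called in both directions. At 4-8 h of the short course 1 of 12 measured rose (Slc25a3) and 4 fell (the dicarboxylate carrier Slc25a10, the oxoglutarate carrier Slc25a11, the calcium-regulated ATP and phosphate carrier Slc25a23 and Slc25a30). The background was 16.8% higher and 10.9% lower. Dimmer Slc25a10 probe sets gave -0.67 (adjusted p = 0.00926) and -0.25 (adjusted p = 0.162) in that window. At 6-18 h of the long course 3 of 27 rose (the ornithine carrier Slc25a15, Slc25a3 and the ADP/ATP carrier Slc25a5) and 2 fell (the aspartate and glutamate carrier Slc25a13 and Slc25a30), against backgrounds of 4.98% and 5.16%. Over all times 7 of 27 passed the F test in the long course (25.3% of all genes) and 6 of 12 in the short course (34.3%).

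Slc25a15 brings ornithine into mitochondria for the urea cycle. Controls of the long course read 999, 809, 877 and 829.7, 6 h arrays 2483, 2490.2, 2619.7 and 5169.97, 10 h arrays 3148, 2482, 2576 and 2928 and 24 h arrays 643, 948, 966 and 948. All arrays of 6 and 10 h lay above all controls, and at 24 h none lay above the top control. The rise was 1.75 ± 0.24 (adjusted p = 7.45e-06) at 6 h and 1.23 ± 0.19 (adjusted p = 3.79e-05, same sign on 15 of 16 arrays) over 6-18 h. At 24-48 h the difference was 0.46 (adjusted p = 0.214).

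Slc25a3, which carries phosphate for ATP synthesis, rose in both courses. Short-course signals were 4037, 4894, 3525 and 3577 on controls and 4393 to 7012 with a median of 5731 at 4-8 h. Only 4 h replicate 1 lay below the top control. The difference was 0.52 ± 0.09 (adjusted p = 0.000123, same sign on 17 of 17 arrays), then 0.46 (adjusted p = 0.00188) without the treated arrays of low correlation and 0.39 (adjusted p = 0.0795) without all 9. Long-course signals were 1761, 2115, 1239.8 and 1221 on controls, 1845, 1314, 1593 and 1725 at 6 h and 3407, 3351, 2502 and 2333 at 18 h. The 18 h arrays lay above all controls and the 6 h arrays among them. The difference was 0.55 ± 0.12 (adjusted p = 0.00219, same sign on 15 of 16 arrays) over 6-18 h.

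Slc25a5 exchanges ADP for ATP. It read 2393, 2633, 2383 and 2194 on long-course controls and 2749 to 3899.6 with a median of 3337 at 24-48 h, where the groups did not overlap. It was higher in all windows of that course, by 0.47 ± 0.11 (adjusted p = 0.00442, same sign on 15 of 16 arrays), 0.46 ± 0.11 (adjusted p = 0.00945, same sign on 12 of 12 arrays) and 0.48 ± 0.11 (adjusted p = 0.0034, same sign on 12 of 12 arrays). On the 29 arrays of low spike-in signal alone the last 2 differences were 0.39 (adjusted p = 0.0937) and 0.30 (adjusted p = 0.217). Short-course Slc25a5 differed by 0.01 (adjusted p = 0.951) at 4-8 h.

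Slc25a30 fell from 559, 830.2, 441 and 622 on short-course controls to 140.4 to 358 with a median of 255 at 4-8 h. No array of that window reached the lowest control. The difference was -1.08 ± 0.23 (adjusted p = 0.000866, same sign on 17 of 17 arrays), with -1.16 (adjusted p = 0.00196) and -1.41 (adjusted p = 0.0136) without the treated and without all arrays of low correlation. Long-course controls of this gene read 245, 306, 194 and 154 and 10 h arrays 127, 113, 111 and 99.5, all below the lowest control. The difference there was -0.75 ± 0.21 (adjusted p = 0.0156, same sign on 16 of 16 arrays), lost without control 1 or 2 (highest adjusted p = 0.0895).

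Slc25a23 read 835, 344, 691 and 739 on short-course controls and 43.7 to 468 with a median of 316 at 4-8 h. Control 2 lay among the treated arrays, and the lowest value was on 7 h replicate 3, an array of low correlation. The fall was -1.25 ± 0.33 (adjusted p = 0.00468, same sign on 17 of 17 arrays), -0.89 (adjusted p = 0.00642) without the treated arrays of low correlation and -0.61 (adjusted p = 0.241) without all 9. On the later design 1 control of 4 stood far above the rest (169, 104, 210.4 and 748), and the difference at 6-18 h was -0.51 (adjusted p = 0.319). The carnitine and acylcarnitine carrier Slc25a20 passed in no window, with -0.41 (adjusted p = 0.128) at 4-8 h and 0.14 (adjusted p = 0.575) at 6-18 h.

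Slc27a5, the liver protein that joins coenzyme A to bile acids and takes part in fatty acid uptake, showed the largest late rise. Controls of the long course fell into a lower pair and a higher pair, 1059, 946, 2395 and 2027. At 18 h the arrays read 1998, 1763, 2218 and 1852, at 36 h 3982, 3149.7, 3312 and 3141 and at 168 h 3357, 3877, 4568 and 3998. The 18 h arrays lay between the control pairs, and from 36 h on every array lay above every control. The differences were 0.35 ± 0.18 (adjusted p = 0.235, same sign on 16 of 16 arrays) at 6-18 h, 1.00 ± 0.18 (adjusted p = 0.000343, same sign on 12 of 12 arrays) at 24-48 h and 1.38 ± 0.18 (adjusted p = 7.72e-07, same sign on 12 of 12 arrays) at 72-168 h. The 72-168 h call held without each single array of that window or control (highest adjusted p = 4.34e-05). Of 5 measured members of its family it was the only one that passed in a window of the long course; in the short course Slc27a2 fell at 4-8 h.

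Iron carriers moved in opposite directions in the short course. Slc11a2, which brings ferrous iron and other divalent metals into cells, rose, and Slc40a1, the only known cellular iron exporter, fell. Of 7 measured metal carriers at 4-8 h, 3 rose (Slc11a2, the zinc carrier Slc30a4 and the magnesium carrier Slc41a3), 1 fell (Slc40a1) and 3 did not pass. Of 24 in the long course at 6-18 h, 2 rose (the zinc carriers Slc39a14 and Slc39a3), 3 fell (Slc39a11, Slc39a8 and Slc40a1) and 19 did not pass. The background was 16.8% higher and 10.9% lower at 4-8 h, and 4.98% and 5.16% at 6-18 h.

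Slc11a2 read 679, 762, 623 and 609 on short-course controls, 5107 and 3565 at 2 h and 568, 654 and 473 at 18 h, while the 17 arrays of 4-8 h spanned 889 to 4972 with a median of 1494. Neither the 2 h arrays nor those of 4-8 h overlapped the controls. The difference at 4-8 h was 1.41 ± 0.40 (adjusted p = 0.00797, same sign on 17 of 17 arrays), 0.93 (adjusted p = 0.0359) without the treated arrays of low correlation and 0.90 (adjusted p = 0.231) without all 9. At 1-2 h it was 1.75 ± 0.48 (adjusted p = 0.0168, same sign on 5 of 5 arrays), lost without 1 h replicate 2 or 2 h replicate 1 (highest adjusted p = 0.0781). Its other short-course probe sets gave 2.40 (adjusted p = 0.000466) and 2.00 (adjusted p = 0.000736) at 4-8 h. In the long course it read 74.9, 98.7, 139.9 and 109 on controls, and differed by 0.09 (adjusted p = 0.74) at 6-18 h.

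Slc40a1 was lower in both courses. Short-course controls read 1111, 1907, 1348 and 1152, 2 h arrays 153 and 191, 4 h arrays 213, 527 and 161 and 48 h arrays 3339.7, 2033 and 2237. The 2 h and 4 h arrays lay below every control, and the 48 h arrays above every control. The difference was -1.84 ± 0.50 (adjusted p = 0.0144, same sign on 5 of 5 arrays) at 1-2 h, a call lost without 1 h replicate 2 or 2 h replicate 1 (highest adjusted p = 0.0614), and -1.77 (adjusted p = 0.0172) and -1.91 (adjusted p = 0.0932) in that window without the treated and without all arrays of low correlation. At 4-8 h it was -1.30 ± 0.41 (adjusted p = 0.0168, same sign on 15 of 17 arrays), lost without control 2 or 3 (highest adjusted p = 0.0629), and likewise -0.85 (adjusted p = 0.085) and -0.99 (adjusted p = 0.228). A second probe set gave -1.22 (adjusted p = 0.0106) at 4-8 h. Of 3 measured Kupffer cell and macrophage markers Clec4f was lower in that window, and their summed signal was 4741 to 6937 on controls and 4094 to 6716 at 4-8 h.

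Long-course controls of Slc40a1 read 852, 568, 941 and 808, 10 h arrays 491, 429.9, 521 and 424 and 168 h arrays 448, 511, 469.8 and 489. All arrays of both times lay below the lowest control. The differences were -0.72 ± 0.13 (adjusted p = 0.000272, same sign on 16 of 16 arrays) at 6-18 h, -0.45 ± 0.14 (adjusted p = 0.0428, same sign on 12 of 12 arrays) at 24-48 h and -0.60 ± 0.14 (adjusted p = 0.00224, same sign on 12 of 12 arrays) at 72-168 h, with calls at all 10 times but 36 and 48 h. The 24-48 h call was lost without any of 10 single arrays (highest adjusted p = 0.192). Further probe sets gave -0.60 (adjusted p = 0.000785) and -0.37 (adjusted p = 0.107) at 6-18 h. Macrophages are rich in Slc40a1, and in these windows 3, 5 and 3 of the 6 measured Kupffer cell and macrophage markers (of a list of 8) were lower, among them Cd68 and Clec4f. Their summed signal was 2107 to 2469 on controls and 983 to 2269, 1009.7 to 1479 and 927 to 2755 in the windows. The part of these cells in the Slc40a1 result was not tested.

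Slc41a3, a magnesium carrier of mitochondria, had the smallest adjusted p of any SLC gene at 4-8 h. Controls read 333, 330.3, 231 and 266, and the arrays of 4-8 h 339 to 909.8 with a median of 555, with no overlap. At 18 h the arrays read 324, 273 and 258, among the controls. The difference was 0.92 ± 0.15 (adjusted p = 3.22e-05, same sign on 17 of 17 arrays), 0.76 (adjusted p = 5.51e-05) without the treated arrays of low correlation and 0.71 (adjusted p = 0.00489) without all 9. It was dim in the long course, with 25.4, 34.8, 45.7 and 62.2 on controls, and passed at 72-168 h by 0.64 ± 0.20 (adjusted p = 0.0322, same sign on 11 of 12 arrays), a call lost without any of 7 single arrays (highest adjusted p = 0.162).

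The zinc importers Slc39a14 and Slc39a10 were each called at 1 time of the long course. Slc39a14, which also takes up iron, read 850.4, 997, 761 and 635 on controls, 1710.2, 1741, 1368 and 1600.2 at 10 h and 629, 650.03, 768 and 767 at 24 h. The 10 h arrays lay above every control. It differed by 0.97 ± 0.23 (adjusted p = 0.00622) at 10 h and by 0.65 ± 0.18 (adjusted p = 0.0187, same sign on 16 of 16 arrays) over 6-18 h, lost without control 3 or 4 (highest adjusted p = 0.113) and, at 0.53 (adjusted p = 0.0647), on the low spike-in arrays alone. Slc39a10 read 65.9, 79.7, 64.5 and 34.6 on controls, 41.9, 36.2, 42.2 and 38.8 at 6 h and 249.96, 129.7, 186 and 143 at 13 h. All 13 h arrays lay above every control, and the 6 h arrays did not. The 13 h difference was 1.16 ± 0.20 (adjusted p = 0.000424).

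**Figure D3:**
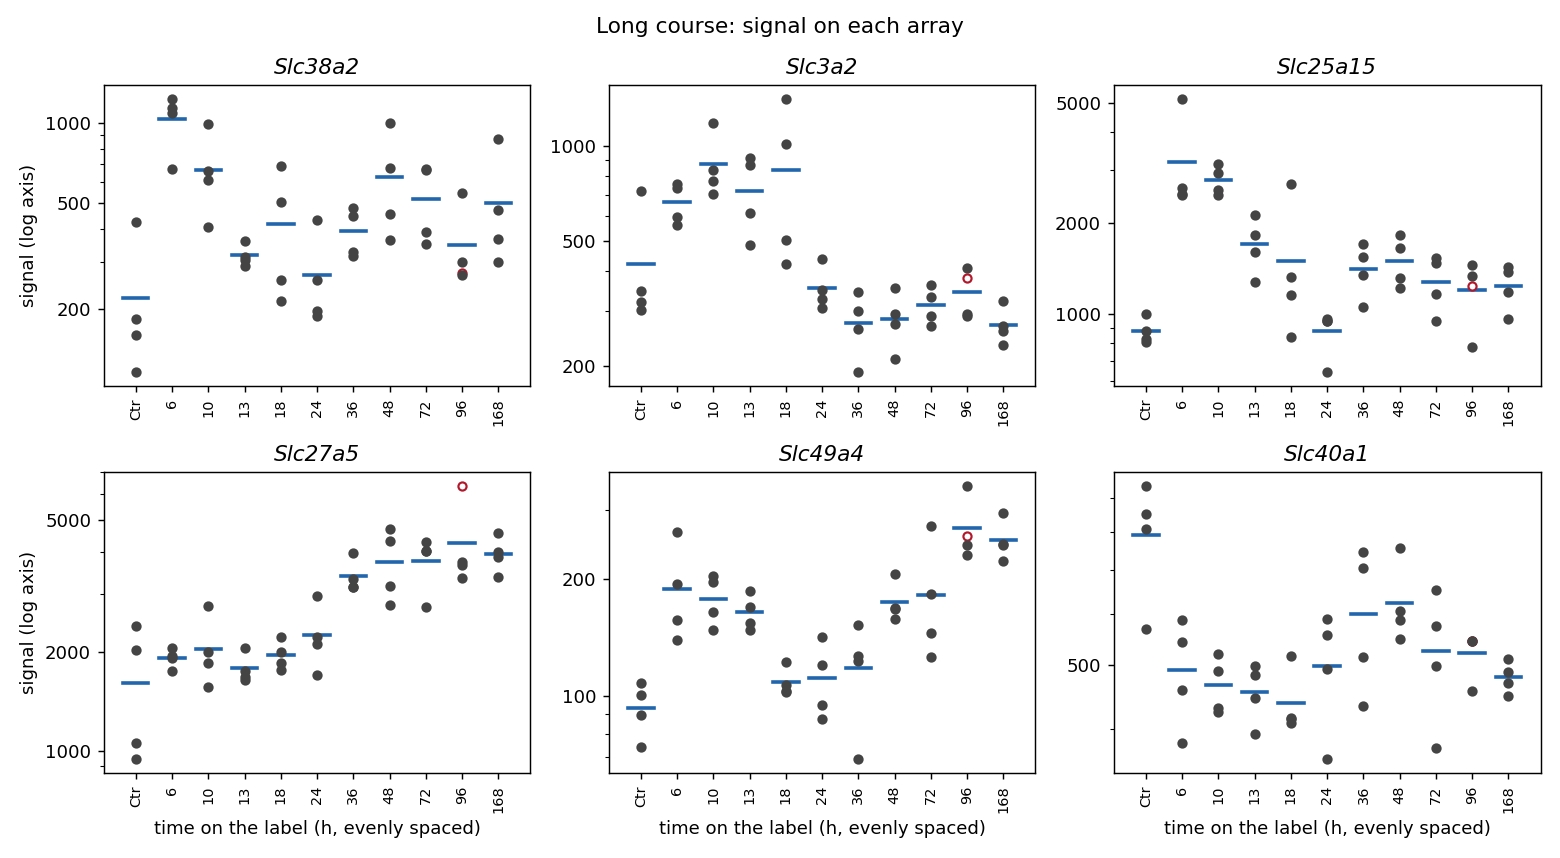
Signal of 6 SLC genes on each long-course array (log y axis) at each labelled time (h, evenly spaced on the x axis); points are arrays, blue lines group means, and the open red circle is 96 h replicate 3, the array with a mean correlation under 0.9. Slc38a2 and Slc25a15 stand highest at 6 and 10 h, Slc3a2 is above its level of 24 h from 6 to 18 h, Slc27a5 stands above all controls from 36 h on, and Slc40a1 is below its lowest control at 10, 13, 18, 96 and 168 h.

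Organic ion and bile acid carriers called early were all lower. At 4-8 h of the short course 2 of 7 fell (Slc22a7 and Slc22a18, background 10.9%), at 6-18 h of the long course 2 of 11 fell (Slc22a7 and Slc22a23, background 5.16%), and the others did not pass. At 72-168 h the organic anion carriers Slc22a8 and Slc22a25 rose (background 5.09%). Slc22a7, an organic anion carrier of the hepatocyte's blood side, read 3024, 4574, 3878 and 3455 on short-course controls and 967 to 2827 with a median of 2099.9 at 4-8 h, with no overlap. The difference was -0.89 ± 0.18 (adjusted p = 0.000359, same sign on 17 of 17 arrays), -0.68 (adjusted p = 0.000391) without the treated arrays of low correlation and -0.79 (adjusted p = 0.00523) without all 9. At 48 h the arrays read 3902, 3604 and 3573, among the controls.

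Long-course Slc22a7 read 1631, 897, 882 and 949 on controls, 531, 542, 584 and 493 at 10 h and 874, 654, 988 and 828 at 168 h. All 10 h arrays lay below every control, as did 3 of the 4 arrays of 168 h. It differed by -0.72 ± 0.12 (adjusted p = 0.000136, same sign on 16 of 16 arrays) at 6-18 h and by -0.33 (adjusted p = 0.145) at 24-48 h. Slc22a18 fell by 0.75 ± 0.20 (adjusted p = 0.00608, same sign on 17 of 17 arrays) at 4-8 h of the short course, and Slc22a23 fell by 0.72 ± 0.15 (adjusted p = 0.00107, same sign on 16 of 16 arrays) at 6-18 h of the long course, both on the log2 scale. The Slc22a18 difference was -0.54 (adjusted p = 0.0181) without the treated arrays of low correlation and -0.33 (adjusted p = 0.385) without all 9.

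Ion exchangers and cotransporters held both calls of the 0.25-0.75 h window. The sodium bicarbonate cotransporter Slc4a7 read 388, 524, 406 and 327 on short-course controls, 876, 728 and 815 at 0.5 h and 561 to 894 with a median of 703 at 4-8 h. Neither the 0.5 h arrays nor those of 4-8 h overlapped the controls. The differences were 0.60 ± 0.15 (adjusted p = 0.0218, same sign on 9 of 9 arrays) at 0.25-0.75 h, 0.99 ± 0.17 (adjusted p = 0.000366, same sign on 5 of 5 arrays) at 1-2 h and 0.75 ± 0.14 (adjusted p = 0.000179, same sign on 17 of 17 arrays) at 4-8 h. The first was lost without control 3 or 4 (highest adjusted p = 0.141). At 4-8 h the value was 0.78 (adjusted p = 0.000836) without the treated arrays of low correlation and 0.75 (adjusted p = 0.0327) without all 9. Slc4a7 was dim on the later design, and its difference at 6-18 h was 0.39 (adjusted p = 0.236).

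Slc4a4, the bicarbonate cotransporter of the same family, rose at 0.25-0.75 h by 1.56 ± 0.39 (adjusted p = 0.0209, same sign on 9 of 9 arrays) and at 1-2 h by 1.65 ± 0.43 (adjusted p = 0.0125, same sign on 5 of 5 arrays). The first call was lost without control 1, 3 or 4 (highest adjusted p = 0.107) and the second without 2 h replicate 2 (adjusted p = 0.0705). It fell in the long course, by 0.54 ± 0.13 (adjusted p = 0.00488, same sign on 16 of 16 arrays) at 6-18 h on the log2 scale, a call lost without control 2 (adjusted p = 0.0504). The sodium, potassium and chloride cotransporter Slc12a2 rose at 4-8 h by 0.99 ± 0.20 (adjusted p = 0.000383, same sign on 17 of 17 arrays), with 0.86 (adjusted p = 0.00344) without the treated arrays of low correlation and 0.49 (adjusted p = 0.269) without all 9. Its dimmer short-course probe sets gave 0.90 (adjusted p = 0.0273) and 0.21 (adjusted p = 0.345) at 4-8 h. The potassium and chloride cotransporter Slc12a7 went the other way. It read 799, 829.6, 839 and 876 on short-course controls and 475, 498 and 442 at 4 h, all below the lowest control, and differed by -0.60 ± 0.12 (adjusted p = 0.000522, same sign on 17 of 17 arrays) at 4-8 h, by -0.56 (adjusted p = 0.00544) without the treated arrays of low correlation and by -0.59 (adjusted p = 0.0652) without all 9. At 72-168 h of the long course it differed by -0.56 ± 0.17 (adjusted p = 0.024, same sign on 12 of 12 arrays), lost without control 1, 2 or 3 (highest adjusted p = 0.114).

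The sulfate carrier Slc26a1 rose in the long course. Controls ranged widely, at 651, 371, 758 and 1176, while 10 h arrays read 1358, 1391, 1171 and 1232 and 72 h arrays 1449.97, 1401, 1464 and 1279. All arrays of both times except 10 h replicate 3 lay above the top control. The difference was 0.79 ± 0.18 (adjusted p = 0.00429, same sign on 16 of 16 arrays) at 6-18 h, lost without control 2 (adjusted p = 0.0749), and 0.92 ± 0.19 (adjusted p = 0.000766, same sign on 12 of 12 arrays) at 72-168 h. In the short course it passed at 4 h only, where it was lower (-1.63 ± 0.55 (adjusted p = 0.0353)). Slc26a8 of the same family rose by 0.53 ± 0.14 (adjusted p = 0.0079, same sign on 12 of 12 arrays) at 72-168 h.

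Nucleoside, nucleotide sugar and vitamin carriers had 4 rises among 9 measured genes at 4-8 h of the short course (the folate carrier Slc19a1, Slc23a3, the nucleoside carrier Slc29a2 and Slc35b1) and 1 fall (Slc29a1). The background was 16.8% higher and 10.9% lower. Slc29a1, an equilibrative nucleoside carrier, read 1309, 616, 859 and 1088 on controls, 376, 334 and 356 at 4 h and 956, 1044 and 1032 at 18 h. The 4 h arrays lay below every control. The 4-8 h difference was -0.93 ± 0.19 (adjusted p = 0.000543, same sign on 16 of 17 arrays), -0.85 (adjusted p = 0.00389) without the treated arrays of low correlation and -0.67 (adjusted p = 0.137) without all 9. Long-course Slc29a1 passed only after 6 h (-0.60 ± 0.17 (adjusted p = 0.0285)), where arrays read 74.99, 97.1, 109 and 60.8 against 159.7, 128, 100.3 and 199.7 on controls.

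Slc35b1, which exchanges ATP and ADP across the endoplasmic reticulum membrane, rose in both courses. It read 2416, 3732, 1847 and 2552 on short-course controls and 4831, 4752 and 4495 at 5.5 h, above them all. The 4-8 h difference was 0.66 ± 0.14 (adjusted p = 0.000723, same sign on 17 of 17 arrays), 0.69 (adjusted p = 0.00169) without the treated arrays of low correlation and 0.42 (adjusted p = 0.173) without all 9, and a second probe set gave 0.85 (adjusted p = 0.000392). Long-course controls read 177, 516, 216 and 263 and 18 h arrays 564, 706, 665 and 618, all above the top control. The difference was 1.14 ± 0.20 (adjusted p = 0.000342) at 18 h and 0.66 ± 0.15 (adjusted p = 0.00429, same sign on 15 of 16 arrays) over 6-18 h, lost without control 1 (adjusted p = 0.0794). A dimmer Slc35b1 probe set of that design gave 0.19 (adjusted p = 0.58). The courses differed at the times they shared. At 6 h the difference was 0.58 (adjusted p = 0.0472) in the short course and 0.10 (adjusted p = 0.872) in the long course. At 18 h the short-course difference was -0.37 (adjusted p = 0.571).

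Slc49a4, a membrane protein of lysosomes, rose early and again late in the long course. Controls read 89.5, 108, 101 and 74.3, 6 h arrays 139.9, 264, 157 and 194, 18 h arrays 123, 103, 107 and 102 and 96 h arrays 346, 229.9, 257 and 243. The 6 h and 96 h arrays lay above every control, and 3 of the 18 h arrays lay among the controls. The differences were 0.59 ± 0.14 (adjusted p = 0.0044, same sign on 16 of 16 arrays) at 6-18 h, 0.38 (adjusted p = 0.128) at 24-48 h and 1.06 ± 0.14 (adjusted p = 1.22e-06, same sign on 12 of 12 arrays) at 72-168 h.

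The monocarboxylate carrier Slc16a1 passed in the 1-2 h window of the earlier design (0.57 ± 0.17 (adjusted p = 0.0301, same sign on 5 of 5 arrays); lost without any of 5 single arrays, highest adjusted p = 0.159) and in no window of the long course. A dimmer Slc16a1 probe set of the earlier design gave 0.19 (adjusted p = 0.628) at 1-2 h. The related Slc16a7 fell in the 4-8 h window of that design (-0.58 ± 0.15 (adjusted p = 0.00468, same sign on 17 of 17 arrays)). The difference was -0.58 (adjusted p = 0.0101) without the treated arrays of low correlation and -0.53 (adjusted p = 0.147) without all 9. Slc16a7 also fell at 6-18 h (-0.54 ± 0.16 (adjusted p = 0.0244, same sign on 16 of 16 arrays)) and 72-168 h (-0.69 ± 0.16 (adjusted p = 0.00313, same sign on 12 of 12 arrays)) of the long course. The long-course calls were lost without control 1 (adjusted p up to 0.22).

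Of 78 SLC genes measured in both courses, 12 passed the F test in both, 21 in the short course only, 8 in the long course only and 37 in neither. Over all genes tested 34.3% passed in the short course and 25.3% in the long course. The share of all genes that passed in both is not given here, so these counts are not set against other genes. The 12 are Slc13a3, Slc16a1, Slc16a7, Slc22a18, Slc22a7, Slc25a3, Slc29a1, Slc2a2, Slc2a5, Slc35b1, Slc3a2 and Slc40a1. At 6 h, a time that both courses sampled, Slc22a7 (-0.84 and -0.61), Slc29a1 (-0.93 and -0.60) and Slc12a7 (-0.80 and -0.69) were called lower in both. Slc3a2 stood at 1.497 and 0.69, Slc41a3 at 1.05 and 0.52, Slc40a1 at -1.38 and -0.65 and Slc25a30 at -1.201 and -0.71, short course first. Slc2a2, at -1.29 and 0.53, and Slc26a1, at -0.80 and 0.68, differed in sign, with no value called. Genes called at 6 h in the short course only included Slc15a4 (0.46 and -0.34), Slc25a3 (0.59 and 0.06) and Slc25a10 (-0.66 and -0.02). Also among them were Slc25a17 (0.66 and -0.01) and Slc35b1 (0.58 and 0.10). At 18 h Slc3a2 (-1.01 and 0.86), Slc35b1 (-0.37 and 1.14) and Slc40a1 (0.17 and -0.79) differed in sign, with the long-course values alone called. Slc22a7, Slc25a3, Slc25a5 and Slc4a4, called there too, had the same sign in both.

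Across genes, 48 of the 78 (61.5%) had the same sign in both courses at 6 h, against 58.3% of 2889 genes measured in both. The shares at 18, 48 and 72 h were 39.7%, 44.9% and 47.4%, against 54.9%, 44.4% and 51.6%. The Pearson correlation over the 78 genes was 0.38 at 6 h, where it was 0.36 over all 2889, and -0.21, -0.30 and 0.13 at the later shared times. These are descriptions: within a course all genes share the same arrays and controls.

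**Figure D4:**
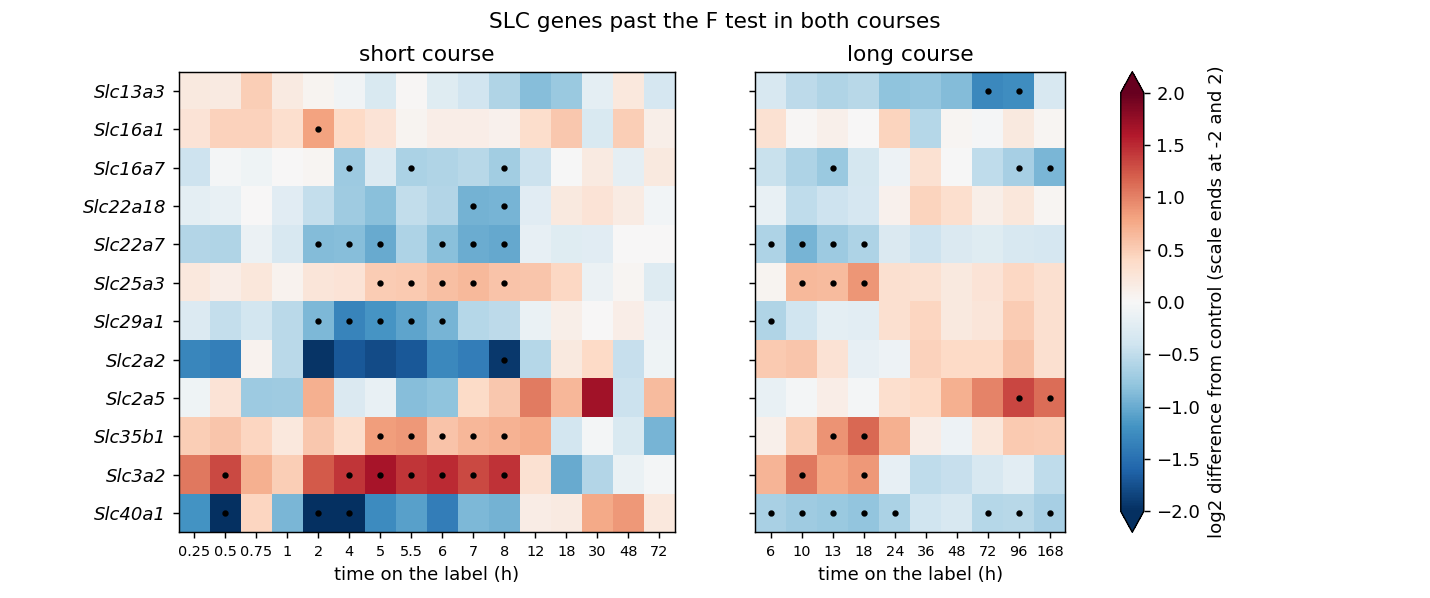
Log2 difference from control (colour, scale ends at -2 and 2) of the 12 SLC genes past the F test in both courses (rows) at each labelled time (columns, h; short course left, long course right); dots mark times with an adjusted p under 0.05. Slc3a2 is red with dots from 4 to 8 h and at 10 and 18 h of the long course, Slc22a7 is blue with dots from 6 to 18 h of the long course, and Slc40a1 is blue with dots at 8 of its 10 times.

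**Figure D5:**
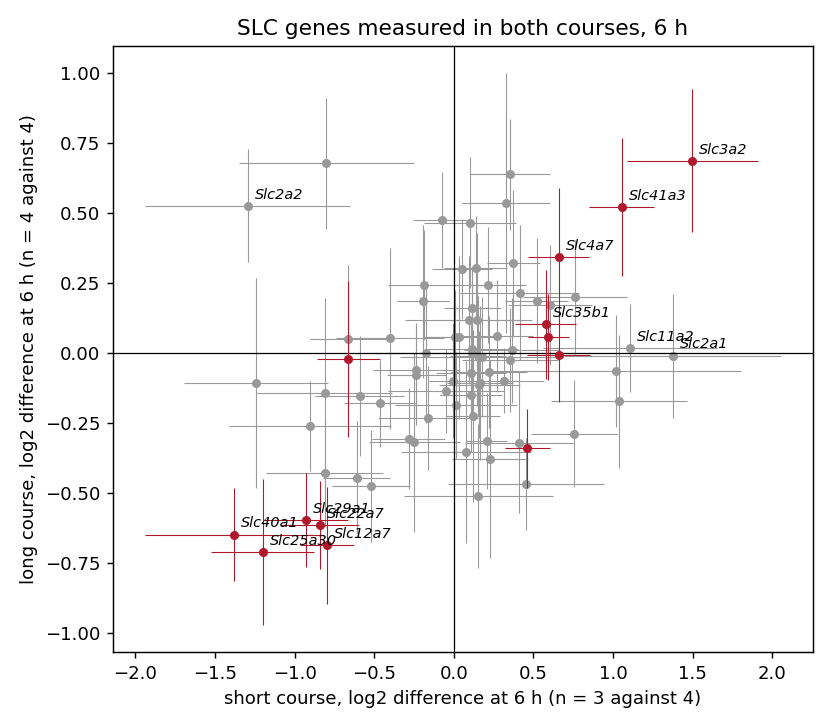
Log2 difference at 6 h of 78 SLC genes in the short course (x axis, 3 arrays against 4) and the long course (y axis, 4 against 4); error bars are standard errors and red points passed the threshold in at least 1 course. Slc3a2 and Slc41a3 lie at the upper right, Slc22a7, Slc29a1, Slc12a7, Slc25a30 and Slc40a1 at the lower left, and Slc2a1 and Slc11a2 lie right of centre with long-course values near 0.

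The genes most like the leading members over the group means were as follows. Over the 17 groups of the short course Slc2a1 was most like Timp1 (r = 0.97), Slc11a2 (0.96) and Hivep1 (0.96), and Slc25a23 most like Dpys (0.97), Mtarc2 (0.96) and Asgr2 (0.95). Over the 11 groups of the long course Slc27a5 was most like Ftcd (0.97), Tango2 (0.96) and Glyatl2 (0.96), and Slc40a1 most like Cnot1 (0.94), Ctbs (0.91) and Grhpr (0.91). These correlations are over group means that share arrays and controls.

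Membrane transporters outside the SLC symbols were read from a list of ABC, SLCO, aquaporin, ATPase and pyruvate carrier genes. At 4-8 h of the short course 9 of 20 measured were called, where 16.8% of all genes rose and 10.9% fell. The organic anion carriers Slco2a1 (-1.95) and Slco1a4 (-1.09), the peroxisomal carrier Abcd3 (-1.42), the aquaporins Aqp9 (-1.37) and Aqp8 (-1.17), Abcc6 (-0.85) and the mitochondrial pyruvate carrier subunit Mpc1 (-0.48) fell. The sodium pump subunit Atp1b1 (1.32) and the calcium pump Atp2a2 (0.57) rose. At 6-18 h of the long course 7 of 24 were called, where 4.98% of all genes rose and 5.16% fell. Atp1b1 (1.23) and Atp2a2 (0.48) were again higher. Aqp8 (-1.10), Abcb4 (-0.82), the sterol carrier subunits Abcg5 (-0.78) and Abcg8 (-0.61) and Slco2a1 (-0.77) were lower. At 72-168 h 6 were lower (background 6.46%), led by Slco1a4 (-1.74), and the others did not pass.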

How the data were processed

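Total RNA of rat liver was hybridised to 2 Affymetrix designs. The deposited values are intensity signals, 1 per probe set and array on a linear scale; the software that made them is not given in the sources used here. From the values, the authors' scaling gave all arrays of a course a common 2% trimmed mean, except 6 h replicate 3 of the short course (150.2 against 801), which was rescaled. Gene symbols came from GEO's platform annotation, and sets with several symbols were left out.

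Values were taken as log2(signal + 32), so differences of dim genes are understated. AFFX control sets (59 and 57) and sets whose mean signal lay under the 30th percentile were left out, and each gene stands for its brightest tested set. limma 3.58.1 in R 4.3.3 fitted group means over all arrays of a course (eBayes with trend), with Benjamini-Hochberg adjustment over 6118 or 11106 probe sets and a threshold of 0.05. Windows were means of their times minus controls. No 2 arrays held identical values. The script was tested on simulated data.

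Genes were named from the calls of a window that held in every fit leaving out 1 array. Of these the 6 largest rises and the 6 largest falls of the full fit were taken. The arrays left out for a window were its own and the controls. Further genes came from a list of liver carriers, and others named in passing were chosen after their values were seen. Members, classes, marker lists and transporter lists were chosen with earlier results of these data known. Alternatives were the added constant, filter, normalization, array weights, probe set rule, arrays of low correlation, spike-in level, the 96 h array described as 72 h, the replicate number as a block and each array left out.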

Additional observations from a re-analysis of the deposited data

Results flagged for a closer look

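For genes described above, the late window was compared directly with the main window of its course in limma, and those with an adjusted p under 0.05 are given as log2 differences. Many of these genes were described because of their calls in these windows, so the comparison reuses the values that chose them. Of all genes tested 15.3% were higher and 21.7% lower late in the short course, and 9.7% and 12.4% in the long course. At 30-72 h of the short course, Slc2a2 (1.58), Slc2a5 (0.82), Slc40a1 (1.90), Slc22a7 (0.82), Slc29a1 (0.95), Slc26a1 (0.86), Slc25a30 (0.80), Slc12a7 (0.55) and Slc25a23 (1.79) were higher than at 4-8 h. In the same comparison Slc2a1 (-1.86), Slc3a2 (-1.72), Slc7a2 (-0.98), Slc25a3 (-0.63), Slc11a2 (-1.41), Slc35b1 (-1.09), Slc4a7 (-0.77) and Slc41a3 (-0.90) were lower. The highest adjusted p among these was 0.0373. At 72-168 h of the long course, Slc2a5 (1.17), Slc27a5 (1.03), Slc22a7 (0.42), Slc29a1 (0.71), Slc49a4 (0.47) and Slc25a23 (0.61) were higher than at 6-18 h, and Slc3a2 (-1.19), Slc25a15 (-0.77), Slc39a10 (-0.78) and Slc39a14 (-0.64) were lower, with a highest adjusted p of 0.0263.

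In groups of 4 arrays, 16 signals of the described genes stood farther from the other 3 than Dixon's test allows at 95%, all of them in the long course. Every long-course group has 4 arrays, but in the short course the controls alone do, so this says nothing of how the courses compare. Chance gives such a value in about 1 in 20 groups, and the number of groups looked at is not given, so the 16 are not set against chance. They were Slc3a2 on control 2 (719, others 302 to 347), Slc38a2 on 96 h replicate 1 (545, others 267 to 301), Slc25a15 on 6 h replicate 4 (5170.0, others 2483 to 2619.7), Slc25a15 on 24 h replicate 1 (643, others 948 to 966), Slc25a3 on 168 h replicate 2 (1900.0, others 1938 to 1946), Slc27a5 on 96 h replicate 3 (6373, others 3347 to 3736), Slc40a1 on 18 h replicate 3 (518, others 408 to 415), Slc40a1 on 96 h replicate 2 (457, others 544 to 545), Slc22a7 on control 1 (1631, others 882 to 949), Slc22a7 on 36 h replicate 3 (929, others 724 to 757), Slc39a10 on 72 h replicate 4 (20.4, others 42.996 to 44.3), Slc39a14 on 18 h replicate 2 (1723, others 806 to 959.5), Slc4a7 on control 1 (70.0, others 39.8 to 40.95), Slc41a3 on 10 h replicate 2 (95.2, others 67.3 to 69.6), Slc12a7 on 13 h replicate 4 (75.0, others 133 to 139) and Slc25a23 on control 4 (748, others 104 to 210.4). The Slc27a5 array is also the one of low mean correlation.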

How the results depend on the processing

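Of 650 recomputed values of 50 named results, 630 kept their direction and side of the threshold, 20 kept only the direction and 0 reversed. Most of the 20 came from the short course without all 9 arrays of low correlation. There Slc12a7 and Slc4a7 lost their calls at 1-2 h. At 4-8 h Slc2a1, Slc2a2, Slc3a2, Slc7a2, Slc11a2, Slc12a2, Slc22a18, Slc25a10, Slc25a23, Slc29a1 and Slc40a1 lost theirs. Of 282 recomputed counts, 240 stayed within 1.5 times the reported one; the others follow, with the cause not tested. With 6 h replicate 3 of the short course on its deposited scale, a choice added after seeing the data, 17 SLC genes passed the F test, 0 rose at 0.25-0.75 h, 4 rose and 1 fell at 1-2 h, 7 rose at 4-8 h, 0 rose at 12-18 h, and 9 were lower late. Without the arrays of low correlation, 0 rose at 0.25-0.75 h, 0 rose and 0 fell at 1-2 h, 3 rose and 2 fell at 4-8 h, 0 rose and 1 fell at 12-18 h, and 2 fell at 24-48 h of the long course. Without the treated ones alone, also added after seeing the data, 6 rose and 1 fell at 0.25-0.75 h and 15 were lower late. Median centring gave 1 rise and 2 falls at 0.25-0.75 h, 8 falls at 1-2 h and 0 falls at 24-48 h. Quantile normalization gave 1 rise and 2 falls at 0.25-0.75 h, 0 rises at 12-18 h, and 5 rises and 2 falls at 24-48 h. Array weights gave 5 rises at 0.25-0.75 h and 2 falls at 24-48 h. At 24-48 h there were also 2 falls with an added constant of 64, a filter at the 50th percentile or the spike-in level as a block, 0 falls with no filter or with all probe sets of a gene averaged, and 4 rises and 4 falls on the arrays of low spike-in level alone.

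The labels do not say what arrays of 1 replicate number share, and same-numbered arrays did not all deviate together (lowest correlation -0.63 for the short course, -0.19 for the long course). Their mean correlation was -0.01 and 0.05, short course first, against 0.004 and -0.02 between arrays of differing numbers. In the same order 15 of 47 and 23 of 44 arrays correlated best with their own number. In the long course the number moved with the spike-in level: all 11 arrays numbered 4 read high, against 4 of the others. With the replicate block, 0 rose at 0.25-0.75 h, 4 rose and 3 fell at 1-2 h, 0 rose at 12-18 h, and 4 rose and 2 fell at 24-48 h.

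Leaving out 1 array at a time, the short course gave 29 to 40 genes past the F test, 0 to 8 rises and 0 to 1 falls at 0.25-0.75 h, 2 to 14 and 1 to 5 at 1-2 h, 14 to 20 and 10 to 15 at 4-8 h, 0 to 1 and 0 to 1 at 12-18 h, 0 to 0 and 0 to 0 at 30-72 h, and 17 to 23 higher and 17 to 23 lower late. The long course gave 45 to 52 past the F test, 9 to 14 rises and 4 to 12 falls at 6-18 h, 2 to 4 and 0 to 2 at 24-48 h, 6 to 15 and 2 to 9 at 72-168 h, and 19 to 26 higher and 10 to 16 lower late. The number of arrays limits the precision, and dim probe sets such as long-course Slc2a1 limit what can be seen there.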
